A study of Mus musculus with 9 samples.

Results

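Germline and meiosis genes were followed in mouse embryonic stem cells with and without Xpc, the damage sensor of nucleotide excision repair. The set held 34 genes known for their work in germ cells, found on the array by matching their names to those of the probes. They had 44 of the 55681 probes that were not controls, and 28 of the 34 genes were measured, among 19900 measured genes in all. The set was chosen with earlier results of these data known. Its shares beside those of all genes are therefore descriptions and not tests.

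The arrays fell into 3 groups of 3, from an embryonic stem cell line in which Cre can delete Xpc between loxP sites. The null group was a subclone of Xpc-null cells, so the clone and the deletion cannot be told apart there. The induced group was the floxed line (Xpc f/f) with Tx, taken 4 days into the deletion, and the floxed group was the same line without Tx and without deletion. The agent that Tx stands for, the promoter that drives Cre and the ages of the cultures are not given in the sources used here. The labels do not say whether replicate arrays came from separate cultures, so the p-values may cover only technical spread.

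Germ cells are set apart early in the embryo by a small set of transcription factors, and later they enter meiosis, in which chromosomes pair along a synaptonemal complex, are cut, and exchange DNA. Most genes for these steps are held silent or low in other cells. In mouse embryonic stem cells they are known to be repressed by DNA methylation and by a Polycomb complex that contains Max, Mga, E2f6, L3mbtl2 and Pcgf6, although low transcript levels of many of them can be found there.

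Levels are given as log2 of the spot intensity minus the 75th percentile of the array, so that 0 is the 75th percentile. A difference is the difference of 2 group means on this scale, given with its standard error from limma, and a call is an adjusted p (Benjamini-Hochberg over all 19900 genes) under 0.05. On each array 47.4% to 57.9% of spots passed the scanner's test for being well above background, and 0 were saturated. Differences compare the same probe between arrays and never different genes. Levels of different genes are put together only in the summed marker levels, in multiples of the 75th percentile.

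The targeted gene followed the labels. Xpc stood at -0.85, -1.53 and -1.37 on the null arrays, -1.11, -0.68 and -1.05 on the induced arrays and 0.59, 0.55 and 0.16 on the floxed arrays. The difference was -1.68 ± 0.20 (adjusted p = 0.00583) for null minus floxed, -1.38 ± 0.20 (adjusted p = 0.224) for induced minus floxed and -0.30 ± 0.20 (adjusted p = 0.386) for null minus induced. All 6 stem cell markers (Pou5f1, Sox2, Nanog, Klf4, Esrrb and Zfp42) were well above background on all 9 arrays and none passed the test in any comparison with all arrays. Floxed array 3 stood apart from the other floxed arrays. On the first principal component, which held 47.3% of the variance, it lay at 24.2, while the null arrays lay between 29.0 and 36.1 and floxed arrays 1 and 2 at -32.6 and -33.8. It shared slide 2 with null array 3, while floxed arrays 1 and 2 were on slide 1 and the other 5 arrays on slide 3. On the second component, which held 15.0% of the variance, these 2 arrays of slide 2 lay together, floxed array 3 at 27.9 and null array 3 at 18.6. Null arrays 1 and 2 lay at -19.2 and -17.3 there, and floxed arrays 1 and 2 at 4.78 and 9.26. The Xpc level of floxed array 3 was nearer to the other floxed arrays than to the null arrays. So was its summed fibroblast marker level, most of which is Tagln and Acta2. In multiples of the 75th percentile, this sum was 30.1 on floxed array 3, against 36.6 and 36.8 on floxed arrays 1 and 2 and 8.82 to 10.7 on the null arrays. Thy1 of the same marker list was at 1.26, 1.58 and 1.35 on the null arrays and -0.63, -0.43 and 1.15 on the floxed arrays, so that floxed array 3 lay nearer to the null arrays. Without it, the Xpc difference was -1.82 (adjusted p = 0.000989) for null minus floxed and -1.51 (0.0318) for induced minus floxed. All 6 stem cell markers then had null minus floxed differences below 0, and 5 of them were called lower, against 11.7% of all genes. Pou5f1, at -0.59 ± 0.33 (0.225), was not called. Calls, overlap counts and list counts that rest on this array are also given without it, as are the induced minus floxed differences whose direction it sets.

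Of the 34 genes, 26 were well above background on all 9 arrays, and 6 were above background on no array. Those 6 were Spo11, which cuts DNA to start recombination, Sycp2 of the chromosome axis, the piRNA pathway genes Piwil4, Tdrd1 and Asz1, and Slc25a31, a testis ADP/ATP carrier. Dazl and Hormad2 were above background on 2 of 3 null arrays, all 3 induced arrays and 1 of 3 floxed arrays, so they passed the filter through the induced group alone. For 9 genes there were several probes, and the brightest was used. In 6 of these (Brdt, Tex15, Hormad1, Msh4, Msh5 and Tex11) another probe failed the filter although the brightest was above background on all 9 arrays.

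The calls rest on 60-base probes, of which those of Stra8 and Sycp3 and 2 of Dmc1 are shown. Stra8 gave the only calls with limma on all arrays, and the other 2 genes were read at separate places along their transcripts. A further Dmc1 probe, at -0.80 ± 0.40 for null minus floxed and -1.07 ± 0.40 for null minus induced, is not shown. Positions are those of the files on mm9. The probes read the transcript on the strand given, and their place relative to exons was not analysed here. The first Sycp3 probe spans 3091 bases of genome and therefore an intron.
Stra8 probe (chr6:34889237-34889296, plus strand): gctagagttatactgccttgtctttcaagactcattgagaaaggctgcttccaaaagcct
Sycp3 probe, spanning (chr10:87932348-87935438, plus strand): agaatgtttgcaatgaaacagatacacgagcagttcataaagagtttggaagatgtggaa
Sycp3 probe, used (chr10:87935675-87935734, plus strand): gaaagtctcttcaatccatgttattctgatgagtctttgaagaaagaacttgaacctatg
Dmc1 probe, used (chr15:79415293-79415352, minus strand): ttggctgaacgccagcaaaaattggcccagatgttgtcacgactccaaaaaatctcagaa
Dmc1 probe, other (chr15:79419182-79419241, minus strand): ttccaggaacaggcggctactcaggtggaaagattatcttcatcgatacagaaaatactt

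Stra8, which germ cells need to enter meiosis and which retinoic acid induces, was the only gene of this set called with limma on all arrays. Its level was -1.27, -1.48 and -1.08 on the null arrays, 0.41, 0.20 and 0.00 on the induced arrays and 0.37, 0.03 and -0.39 on the floxed arrays. All 3 null arrays lay below all 6 other arrays, and the induced and floxed arrays overlapped. The null mean was -1.28 ± 0.20, against 0.20 ± 0.20 in induced cells and 0.00 ± 0.38 in floxed cells (SD, n = 3 each). Stra8 fell by 1.28 ± 0.20 in null against floxed cells, to 41.2% of the floxed level (adjusted p = 0.0213). It fell by 1.48 ± 0.20 in null against induced cells, to 35.9% of the induced level (adjusted p = 0.0117), and the 2 comparisons share the null arrays. The induced minus floxed difference was 0.20 ± 0.20 (adjusted p = 0.967). In RNA of whole cultures, fewer cells with the transcript and less RNA per cell cannot be told apart.

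Stra8 was lower on the null arrays on both slides that hold them, but the size and the call depended on the arrays. On slide 3 alone null arrays 1 and 2 lay -1.57 ± 0.15 from the 3 induced arrays (adjusted p = 0.00382). On slide 2, with 1 array each and no test, null array 3 lay -0.69 from floxed array 3, and with slide as a fixed block the null minus floxed difference of that size did not pass (adjusted p = 0.403). Without floxed array 3 it was -1.48 ± 0.17 (adjusted p = 0.000954). The null minus floxed call was lost without floxed array 1 or 2 or null array 1 or 2 (adjusted p between 0.0641 and 0.0955), and the null minus induced call without induced array 1 or 2 or null array 1 or 2 (between 0.0527 and 0.0646).

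**Figure D1:**
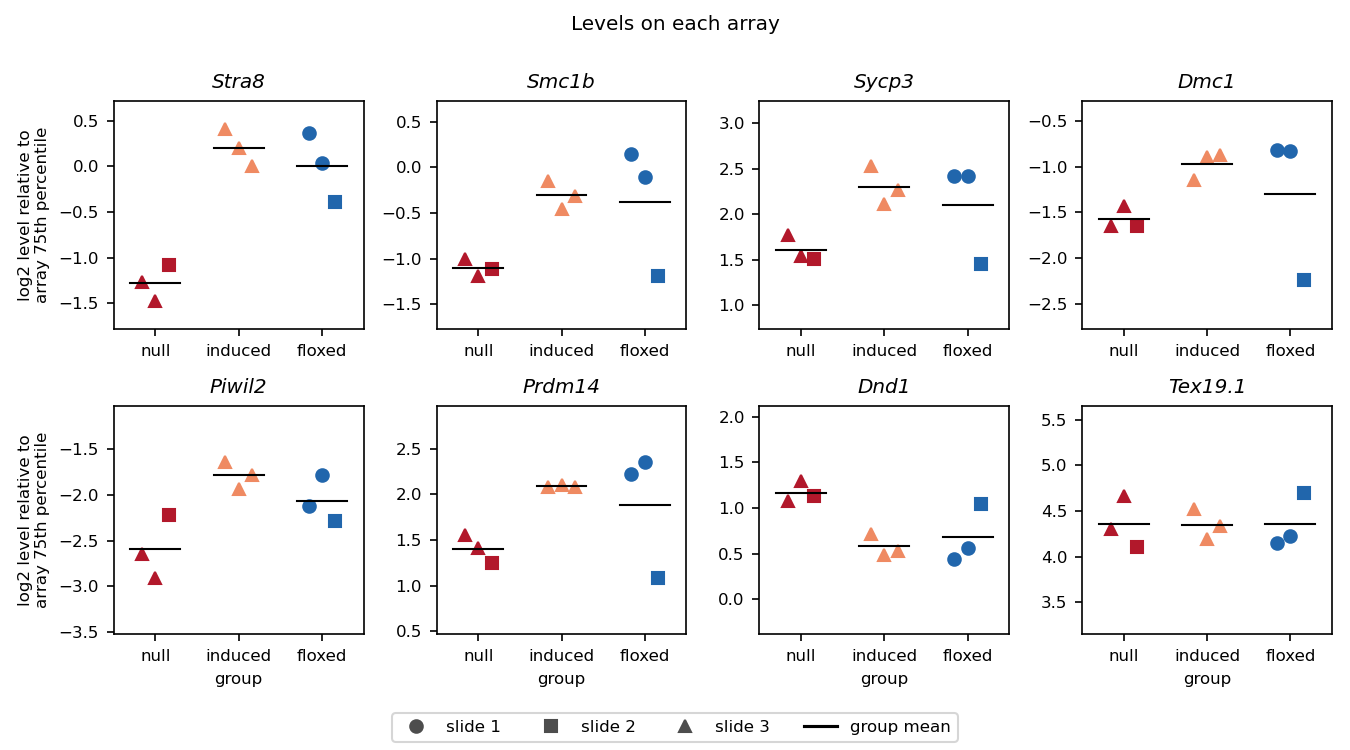
Level on each array (log2 relative to the array's 75th percentile, vertical axis, each panel spanning the same range) of 8 genes in the null, induced and floxed groups (horizontal axis), with the slide as the marker shape and the group mean as a line. Stra8 was lower on all 3 null arrays than on the 6 others, while for Smc1b, Sycp3, Dmc1, Prdm14 and Dnd1 floxed array 3 lay toward or beyond the null arrays and away from floxed arrays 1 and 2.

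Counted over the set, 1 of the 28 measured genes was called in null minus floxed, Stra8, which was lower. Over all 19900 genes 1.07% were called lower and 0.714% higher. In null minus induced the count was again 1 of 28, lower, while 1.53% of all genes were called lower and 0.658% higher. An unadjusted limma p under 0.05 was found for 7 of the 28 (25%) in null minus floxed, against 22.8% of all genes. In null minus induced it was found for 13 (46.4%), against 23.8% of all genes. None of the 28 was called in induced minus floxed with limma, where 3 (10.7%) had an unadjusted p under 0.05, against 5.9% of all genes, and where 0.00503% of all genes were called higher and 0% lower. Array weights, an alternative in limma that lowers the weight of floxed array 3, called 2 of the 28 there, 1 higher and 1 lower (3.57% each, against 3.38% higher and 2.24% lower of all genes). The median difference of the 28 genes was -0.08 for null minus floxed, 0.13 for induced minus floxed and -0.23 for null minus induced, against 0.01, 0.00 and 0.02 over all genes.

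In null minus induced, 12 of the 28 genes (42.9%) had all null arrays below all induced arrays, which was so for 18.3% of all genes, and 4 (14.3%) had them all above, against 19% of all genes. The 12 were Dmc1, Msh5, Piwil2, Prdm1, Prdm14, Rec8, Smc1b, Stra8, Sycp1, Sycp3, Tex101 and Tex11, and the 4 were Dnd1, Syce1, Taf7l and Tex15. The null and floxed groups were apart for fewer genes. Stra8 was the 1 gene with every null array below every floxed array (11.4% of all genes), and Dnd1, Mael and Syce1 had every null array above (12% of all genes). Nanos3 had every induced array above every floxed array (6.63% of all genes) and none had the opposite order (6.26%). Hormad2 had it too, but entered the count only through the induced group. Of these genes, Stra8 alone passed the test with all arrays. The shares are only a description, as the set was chosen with earlier results of these data known. Without floxed array 3, 9 of the 28 genes (32.1%, against 24.9% of all genes) had every null array below both floxed arrays and 5 (17.9%, against 29.1%) above them, while 5 had every induced array above (17.9%, against 20.1%, Hormad2 among them) and 5 below (17.9%, against 15.4%).

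**Figure D2:**
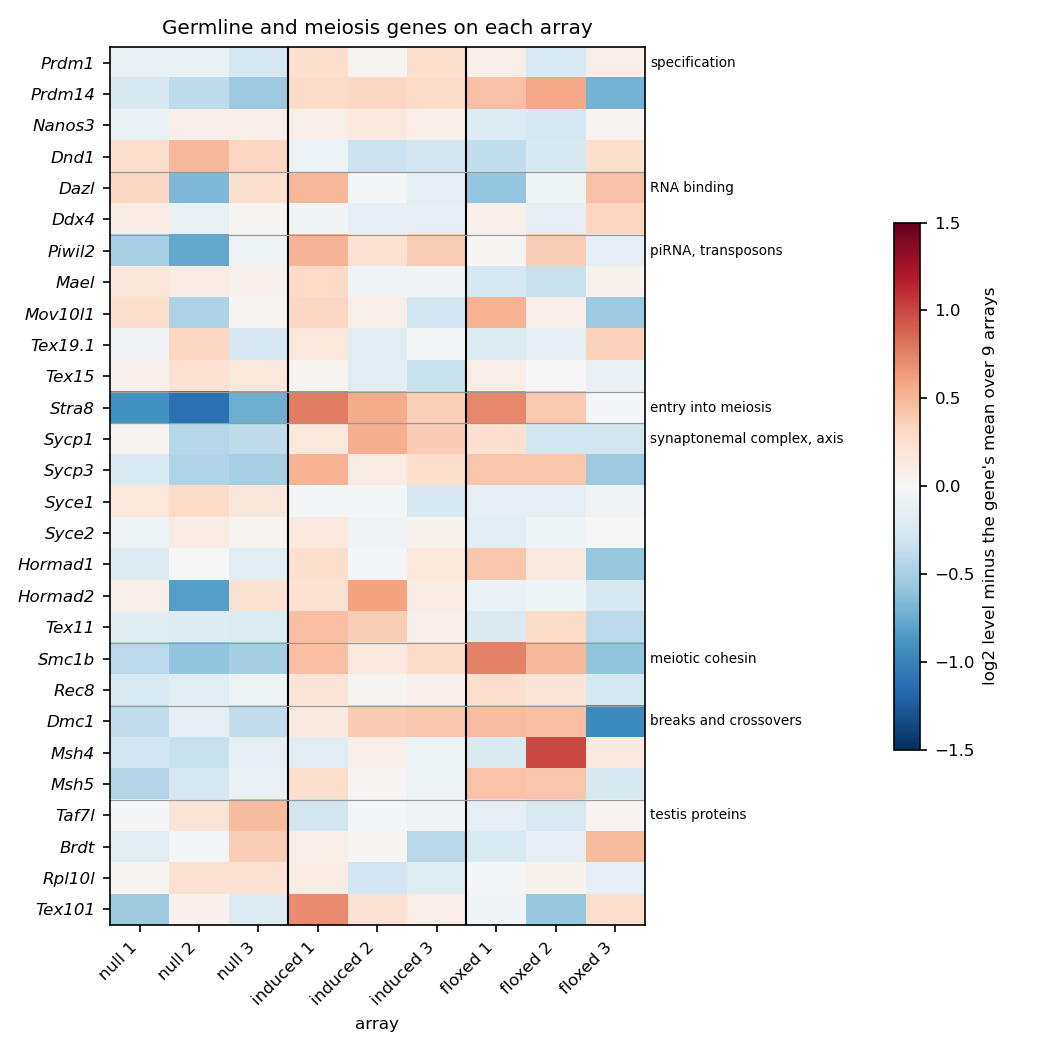
Level of the 28 measured genes (rows, grouped by role) on the 9 arrays (columns: null, induced, floxed), as the log2 level minus the mean of that gene over the 9 arrays, on a colour scale from -1.5 (blue) to 1.5 (red). Stra8 is the darkest blue row across the null arrays, and the floxed array 3 column is blue for Dmc1, Prdm14, Smc1b, Sycp3, Hormad1 and Mov10l1, unlike the other 2 floxed columns.

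Among the genes of germ cell specification, Prdm14 and Dnd1 had the largest differences in the comparisons of null cells, in opposite directions. Prdm14, a transcription regulator that primordial germ cells need and that also sustains naive pluripotency, was at 1.55, 1.41 and 1.24 on the null arrays, 2.08, 2.10 and 2.08 on the induced arrays and 2.23, 2.36 and 1.08 on the floxed arrays. Every null array was below every induced array, and floxed array 3 was lower still. The differences were -0.49 ± 0.29 for null minus floxed, 0.20 ± 0.29 for induced minus floxed and -0.68 ± 0.29 for null minus induced. Dnd1, an RNA-binding protein on which primordial germ cell survival depends, was at 1.07, 1.30 and 1.13 on the null arrays, 0.72, 0.49 and 0.53 on the induced arrays and 0.44, 0.56 and 1.04 on the floxed arrays. All null arrays were above the 6 others, floxed array 3 most narrowly. Its differences were 0.49 ± 0.16 for null minus floxed, -0.10 ± 0.16 for induced minus floxed and 0.59 ± 0.16 for null minus induced, with adjusted p values of 0.132, 0.983 and 0.0912.

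Prdm1 and Nanos3 had smaller differences in the comparisons of null cells. Prdm1, the repressor that starts the primordial germ cell programme, was at 0.63, 0.62 and 0.49 on the null arrays, 0.99, 0.78 and 0.98 on the induced arrays and 0.83, 0.51 and 0.83 on the floxed arrays, and its differences were -0.15 ± 0.12 for null minus floxed, 0.19 ± 0.12 for induced minus floxed and -0.34 ± 0.12 for null minus induced. Its null arrays lay below the induced arrays and overlapped the floxed arrays. Nanos3, an RNA-binding protein that protects migrating germ cells, was at 1.86, 2.07 and 2.05 on the null arrays, 2.05, 2.11 and 2.06 on the induced arrays and 1.76, 1.69 and 2.01 on the floxed arrays. It was slightly lower on floxed arrays 1 and 2 than on the other 7 arrays. Its differences were 0.17 ± 0.11 for null minus floxed, 0.25 ± 0.11 for induced minus floxed and -0.08 ± 0.11 for null minus induced, and none of the 4 specification genes passed the test in any comparison.

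Neither germline RNA regulator passed the test in any comparison. Ddx4, the germ cell RNA helicase also called Vasa, was at 0.49, 0.28 and 0.39 on the null arrays, 0.33, 0.25 and 0.25 on the induced arrays and 0.45, 0.26 and 0.70 on the floxed arrays, and its differences were -0.08 ± 0.12 for null minus floxed, -0.19 ± 0.12 for induced minus floxed and 0.11 ± 0.12 for null minus induced. Its highest value was that of floxed array 3, and the groups overlapped in every comparison. Dazl, which binds germ cell messages and promotes their translation, lay between -3.46 and -2.48 on the null arrays, between -2.93 and -2.30 on the induced arrays and between -3.37 and -2.35 on the floxed arrays, near the limit of detection. Its null minus floxed difference was 0.03 ± 0.33 and its null minus induced difference -0.15 ± 0.33, both within 1 standard error of 0.

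Of the measured piRNA and transposon genes, Piwil2 had the largest difference. Piwil2 (Mili) binds piRNAs, the small RNAs that guide transposon silencing in the germline. It was at -2.65, -2.91 and -2.22 on the null arrays, -1.64, -1.93 and -1.78 on the induced arrays and -2.12, -1.78 and -2.28 on the floxed arrays. The null arrays were below the induced arrays with no overlap, and null array 3 lay within the floxed range. Null array 2 was close to the lowest level well above background on that array (-3.30). Over the settings tried, the null minus induced difference ran from -1.00 to -0.40. The differences were -0.53 ± 0.19 for null minus floxed, 0.28 ± 0.19 for induced minus floxed and -0.81 ± 0.19 for null minus induced, with an adjusted p of 0.0697 for null minus induced. The other measured genes of this role had smaller differences. Mael, a nuage protein of the same pathway, was at 1.75, 1.69 and 1.64 on the null arrays, 1.88, 1.52 and 1.54 on the induced arrays and 1.32, 1.25 and 1.63 on the floxed arrays, with differences of 0.29 ± 0.14 for null minus floxed, 0.25 ± 0.14 for induced minus floxed and 0.05 ± 0.14 for null minus induced. Its null arrays lay just above the floxed arrays and within the range of the induced arrays. Mov10l1, the helicase that feeds piRNA precursors to Piwi proteins, was at -2.22, -2.94 and -2.44 on the null arrays, -2.17, -2.40 and -2.77 on the induced arrays and -1.96, -2.40 and -3.03 on the floxed arrays, with differences of -0.07 ± 0.29 for null minus floxed, 0.02 ± 0.29 for induced minus floxed and -0.09 ± 0.29 for null minus induced. Its groups overlapped in every comparison.

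Tex19.1, which restrains transposons in the germline and placenta, had nearly equal group means, though its arrays were spread. It stood at 4.30, 4.66 and 4.11 on the null arrays, 4.52, 4.20 and 4.34 on the induced arrays and 4.16, 4.23 and 4.70 on the floxed arrays, and its differences were 0.00 ± 0.19 for null minus floxed, -0.01 ± 0.19 for induced minus floxed and 0.01 ± 0.19 for null minus induced. Each of the 3 differences was far smaller than its standard error, and null minus floxed was -0.59 on slide 2. Tex15, which is needed for silencing of transposons in male germ cells, was at -1.28, -1.13 and -1.19 on the null arrays, -1.30, -1.50 and -1.68 on the induced arrays and -1.25, -1.35 and -1.45 on the floxed arrays. The null arrays were slightly above the induced arrays, and the differences were 0.14 ± 0.12 for null minus floxed, -0.15 ± 0.12 for induced minus floxed and 0.29 ± 0.12 for null minus induced. None of the 5 measured piRNA and transposon genes passed the test.

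Of the 7 measured genes of the synaptonemal complex and chromosome axis, none passed the test. The null arrays lay below all induced arrays for Sycp3, Sycp1 and Tex11, and above them for Syce1. Sycp3, a protein of the chromosome axis, was at 1.78, 1.55 and 1.50 on the null arrays, 2.53, 2.11 and 2.27 on the induced arrays and 2.42, 2.42 and 1.45 on the floxed arrays. The null arrays were all below the induced arrays, and floxed array 3 was below the null arrays. Its differences were -0.49 ± 0.25 for null minus floxed, 0.21 ± 0.25 for induced minus floxed and -0.69 ± 0.25 for null minus induced. The second Sycp3 probe gave -0.66 ± 0.22 for null minus floxed and -0.67 ± 0.22 for null minus induced. Sycp1, the transverse filament of the complex, was at -1.70, -2.18 and -2.13 on the null arrays, -1.59, -1.20 and -1.36 on the induced arrays and -1.50, -2.03 and -2.01 on the floxed arrays, and its differences were -0.15 ± 0.19 for null minus floxed, 0.46 ± 0.19 for induced minus floxed and -0.62 ± 0.19 for null minus induced. Null and induced arrays did not overlap for Sycp1, and its null minus induced difference had an adjusted p of 0.109.

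Syce1 and Syce2 belong to the central element of the complex. Syce1 was at 2.27, 2.41 and 2.28 on the null arrays, 2.09, 2.09 and 1.87 on the induced arrays and 1.98, 1.98 and 2.06 on the floxed arrays, with all null arrays above the 6 others by a small margin. Its differences were 0.31 ± 0.10 for null minus floxed, 0.01 ± 0.10 for induced minus floxed and 0.30 ± 0.10 for null minus induced, with an adjusted p of 0.117 for null minus floxed. Syce2 was at 5.05, 5.24 and 5.17 on the null arrays, 5.28, 5.09 and 5.18 on the induced arrays and 4.97, 5.07 and 5.14 on the floxed arrays, and its groups overlapped in every comparison. Its differences were 0.09 ± 0.10 for null minus floxed, 0.12 ± 0.10 for induced minus floxed and -0.03 ± 0.10 for null minus induced. Hormad1, which marks unpaired axes, was at -1.23, -1.02 and -1.19 on the null arrays, -0.78, -1.05 and -0.87 on the induced arrays and -0.61, -0.89 and -1.59 on the floxed arrays, with differences of -0.11 ± 0.22 for null minus floxed, 0.14 ± 0.22 for induced minus floxed and -0.25 ± 0.22 for null minus induced. Its lowest array was floxed array 3. Hormad2, its relative, lay between -4.19 and -3.13 on the null arrays, between -3.25 and -2.76 on the induced arrays and between -3.60 and -3.43 on the floxed arrays, near the limit of detection. The null minus floxed difference of Hormad2 was -0.04 ± 0.26 and the induced minus floxed difference 0.45 ± 0.26. Tex11, an X-linked gene for crossover formation, was at -1.88, -1.89 and -1.90 on the null arrays, -1.25, -1.32 and -1.62 on the induced arrays and -1.92, -1.42 and -2.09 on the floxed arrays, and its differences were -0.08 ± 0.17 for null minus floxed, 0.41 ± 0.17 for induced minus floxed and -0.49 ± 0.17 for null minus induced. Its null arrays lay below the induced arrays and inside the floxed range.

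Both meiotic cohesin genes had differences below 0 in both comparisons of null cells, and neither passed the test. Smc1b, the meiosis form of the cohesin subunit Smc1, was at -1.00, -1.19 and -1.11 on the null arrays, -0.15, -0.45 and -0.32 on the induced arrays and 0.15, -0.11 and -1.19 on the floxed arrays. The 3 null arrays and floxed array 3 formed the low values, and the induced arrays and floxed arrays 1 and 2 the high ones. Its differences were -0.72 ± 0.29 for null minus floxed, 0.08 ± 0.29 for induced minus floxed and -0.80 ± 0.29 for null minus induced, with adjusted p values of 0.193, 0.995 and 0.152. Rec8, the meiotic kleisin that closes the cohesin ring, was at 1.78, 1.83 and 1.93 on the null arrays, 2.20, 2.05 and 2.07 on the induced arrays and 2.26, 2.21 and 1.74 on the floxed arrays. It showed the same order at a smaller size, with differences of -0.22 ± 0.14 for null minus floxed, 0.04 ± 0.14 for induced minus floxed and -0.26 ± 0.14 for null minus induced.

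Of the genes for breaks and crossovers, Dmc1, the meiotic recombinase that carries out strand exchange, was at -1.65, -1.43 and -1.65 on the null arrays, -1.14, -0.90 and -0.87 on the induced arrays and -0.82, -0.83 and -2.24 on the floxed arrays. The null arrays were below the induced arrays and below floxed arrays 1 and 2, while floxed array 3 was the lowest of all 9. The differences were -0.28 ± 0.33 for null minus floxed, 0.32 ± 0.33 for induced minus floxed and -0.60 ± 0.33 for null minus induced. The other 2 Dmc1 probes gave -0.80 ± 0.40 and -0.44 ± 0.24 for null minus floxed, and -1.07 ± 0.40 and -0.59 ± 0.24 for null minus induced, the same direction as the probe used. Msh5, which with Msh4 stabilises crossover intermediates, was at -2.74, -2.56 and -2.42 on the null arrays, -2.03, -2.28 and -2.38 on the induced arrays and -1.87, -1.88 and -2.54 on the floxed arrays, with differences of -0.47 ± 0.19 for null minus floxed, -0.13 ± 0.19 for induced minus floxed and -0.34 ± 0.19 for null minus induced. Null and induced arrays of Msh5 did not overlap. Msh4 was at -2.97, -3.02 and -2.85 on the null arrays, -2.86, -2.61 and -2.77 on the induced arrays and -2.91, -1.70 and -2.55 on the floxed arrays, and a single high value, floxed array 2, stood apart. On null array 2 Msh4 was close to the lowest level well above background there (-3.30). Its differences were -0.56 ± 0.26 for null minus floxed, -0.36 ± 0.26 for induced minus floxed and -0.20 ± 0.26 for null minus induced, and none of the 3 measured genes passed the test.

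The testis forms and other testis proteins showed small differences. Taf7l, the X-linked germ cell relative of a general transcription factor subunit, was at 2.67, 2.88 and 3.16 on the null arrays, 2.42, 2.67 and 2.63 on the induced arrays and 2.55, 2.46 and 2.73 on the floxed arrays. Its null arrays lay just above the induced arrays, and its differences were 0.32 ± 0.14 for null minus floxed, -0.01 ± 0.14 for induced minus floxed and 0.33 ± 0.14 for null minus induced. Brdt, the testis bromodomain protein, was at -0.77, -0.64 and -0.24 on the null arrays, -0.51, -0.58 and -1.03 on the induced arrays and -0.84, -0.73 and -0.13 on the floxed arrays, with differences of 0.02 ± 0.23 for null minus floxed, -0.14 ± 0.23 for induced minus floxed and 0.16 ± 0.23 for null minus induced. Its groups overlapped throughout. Rpl10l is a retrogene copy of the ribosomal protein gene Rpl10, and whether its probes also catch the parent transcript was not tested. It was at 4.85, 5.02 and 5.02 on the null arrays, 4.92, 4.52 and 4.62 on the induced arrays and 4.78, 4.86 and 4.66 on the floxed arrays, with differences of 0.20 ± 0.12 for null minus floxed, -0.08 ± 0.12 for induced minus floxed and 0.28 ± 0.12 for null minus induced, and its second probe gave 0.12 ± 0.11 for null minus floxed and 0.25 ± 0.11 for null minus induced. Tex101, a germ cell surface protein, was at -2.06, -1.45 and -1.72 on the null arrays, -0.81, -1.30 and -1.42 on the induced arrays and -1.57, -2.09 and -1.26 on the floxed arrays. The null arrays were below the induced arrays, and the differences were -0.11 ± 0.25 for null minus floxed, 0.46 ± 0.25 for induced minus floxed and -0.56 ± 0.25 for null minus induced. None of these 4 genes passed the test.

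**Figure D3:**
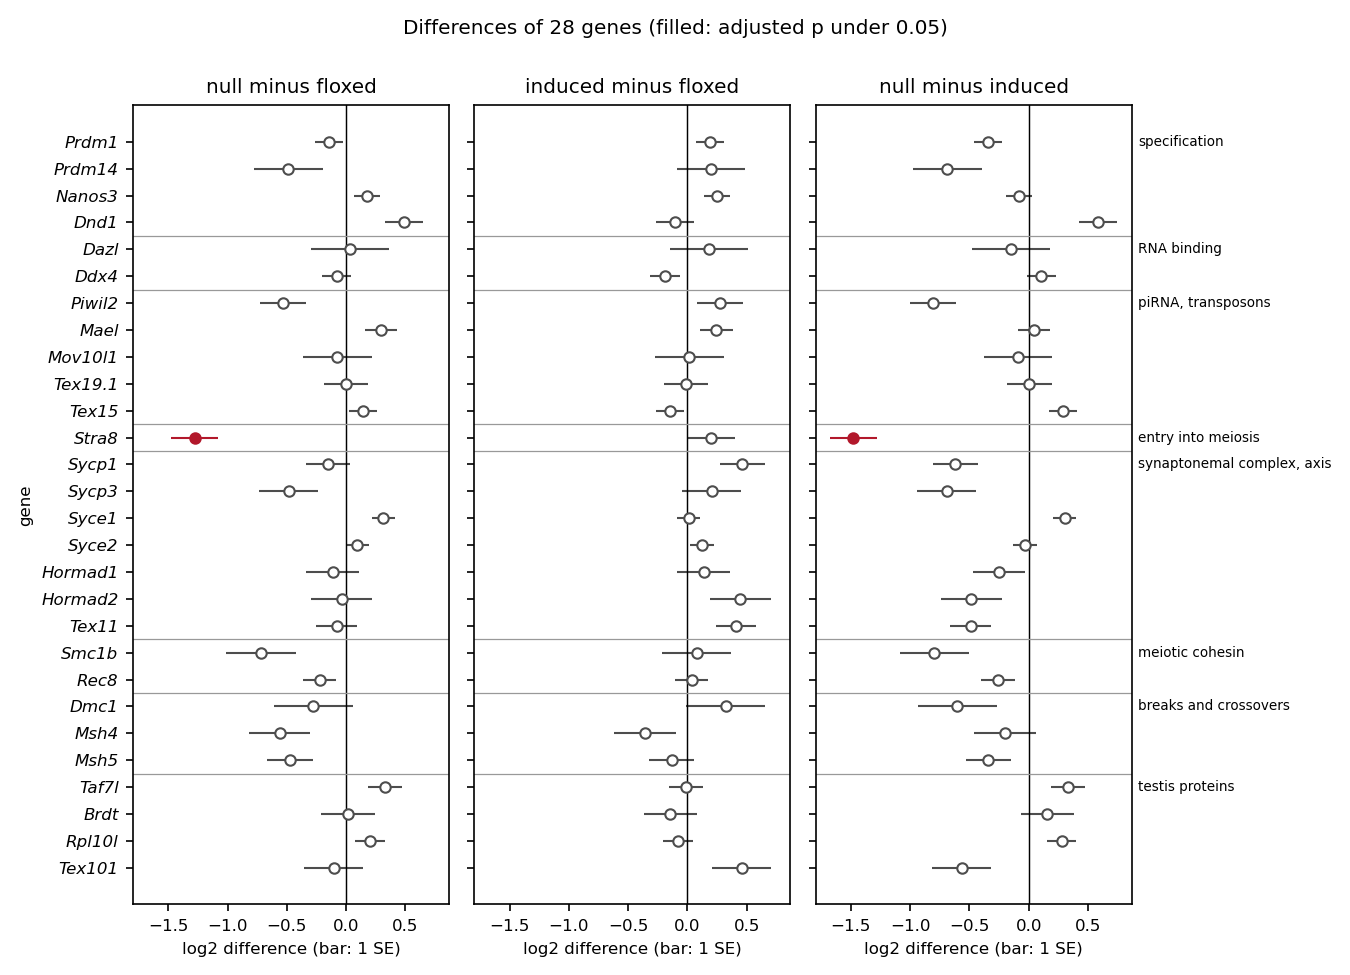
Difference of group means on the log2 scale (horizontal axis, bar 1 standard error) of the 28 measured genes (vertical axis, by role) for null minus floxed, induced minus floxed and null minus induced, with filled points for an adjusted p under 0.05. Stra8 is the only filled gene, at -1.28 in null minus floxed and -1.48 in null minus induced, and no gene is filled in induced minus floxed.

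Several of these genes were called once the slides or floxed array 3 were set aside. On slide 3 alone, which holds null arrays 1 and 2 and all 3 induced arrays, 7 of the 28 genes passed the limma test. Lower in null than in induced cells were 6 genes (21.4%), against 7.1% of all genes. They were Stra8, Piwil2 at -1.00 ± 0.14 (adjusted p = 0.00992), Smc1b at -0.79 ± 0.13 (0.0152), Sycp3 at -0.64 ± 0.15 (0.0443), Prdm14 at -0.61 ± 0.10 (0.0147) and Dmc1 at -0.56 ± 0.13 (0.0402). Dnd1 was higher, at 0.61 ± 0.12 (0.029), which is 3.57% of the 28 genes against 5.26% of all genes. The rest of the 28 did not pass on that slide.

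Floxed array 3 changed the null minus floxed comparison most. For 8 genes (Dmc1, Hormad1, Mov10l1, Msh5, Prdm14, Smc1b, Stra8 and Sycp3) it lay at least 0.5 below the mean of floxed arrays 1 and 2, with Dmc1 at -1.42, Smc1b at -1.21, Prdm14 at -1.21 and Sycp3 at -0.96. For 5 genes it lay at least 0.5 above that mean, at 0.76 for Dazl, 0.65 for Brdt, 0.57 for Tex101, 0.54 for Dnd1 and 0.51 for Tex19.1. Over the 28 genes, the SD of its deviation from that mean was 0.61, while floxed arrays 1 and 2 differed from each other with an SD of 0.35. Over all genes these SDs were 0.49 and 0.28. For 19 of the 28 genes floxed array 3 was nearer to null array 3, also on slide 2, than to the mean of the other floxed arrays. The same count was not made over all genes or against null arrays 1 and 2. It therefore cannot be read as a trait of this set or of slide 2.

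Without floxed array 3, 10 of the 28 genes passed in null minus floxed. The 7 lower genes (25%, against 11.7% of all genes) were Stra8, Smc1b at -1.12 ± 0.13 (adjusted p = 0.000878), Prdm14 at -0.89 ± 0.11 (0.00115), Sycp3 at -0.81 ± 0.14 (0.00563), Dmc1 at -0.75 ± 0.12 (0.00351), Msh5 at -0.69 ± 0.13 (0.00854) and Rec8 at -0.39 ± 0.09 (0.0189). The 3 higher genes (10.7%, against 13.1% of all genes) were Dnd1 at 0.67 ± 0.11 (0.00485), Mael at 0.41 ± 0.12 (0.0449) and Syce1 at 0.34 ± 0.10 (0.0405). In the remaining arrays, the floxed cells of slide 1 face null arrays of slides 2 and 3, so slide and group cannot be told apart there. On slide 2, null array 3 minus floxed array 3 was 0.08 for Smc1b, 0.16 for Prdm14, 0.05 for Sycp3 and 0.59 for Dmc1, and of the genes called lower without that array only Stra8 was below 0. Which of the 2 pictures stands for the floxed cells was not tested.

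The same array set the direction of 11 of the 28 induced minus floxed differences, none of which passed with it or without it. Without floxed array 3, Dmc1 was at -0.15 ± 0.12 for induced minus floxed, against 0.32 ± 0.33 with all arrays. Prdm14 was at -0.21 ± 0.11 without it and 0.20 ± 0.29 with it, Sycp3 at -0.12 ± 0.14 and 0.21 ± 0.25, and Smc1b at -0.33 ± 0.13 and 0.08 ± 0.29. The other 7 were Brdt, Dnd1, Hormad1, Mov10l1, Rec8, Taf7l and Tex19.1, and the median of the 28 genes was 0.05 without the array and 0.13 with it.

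**Figure D4:**
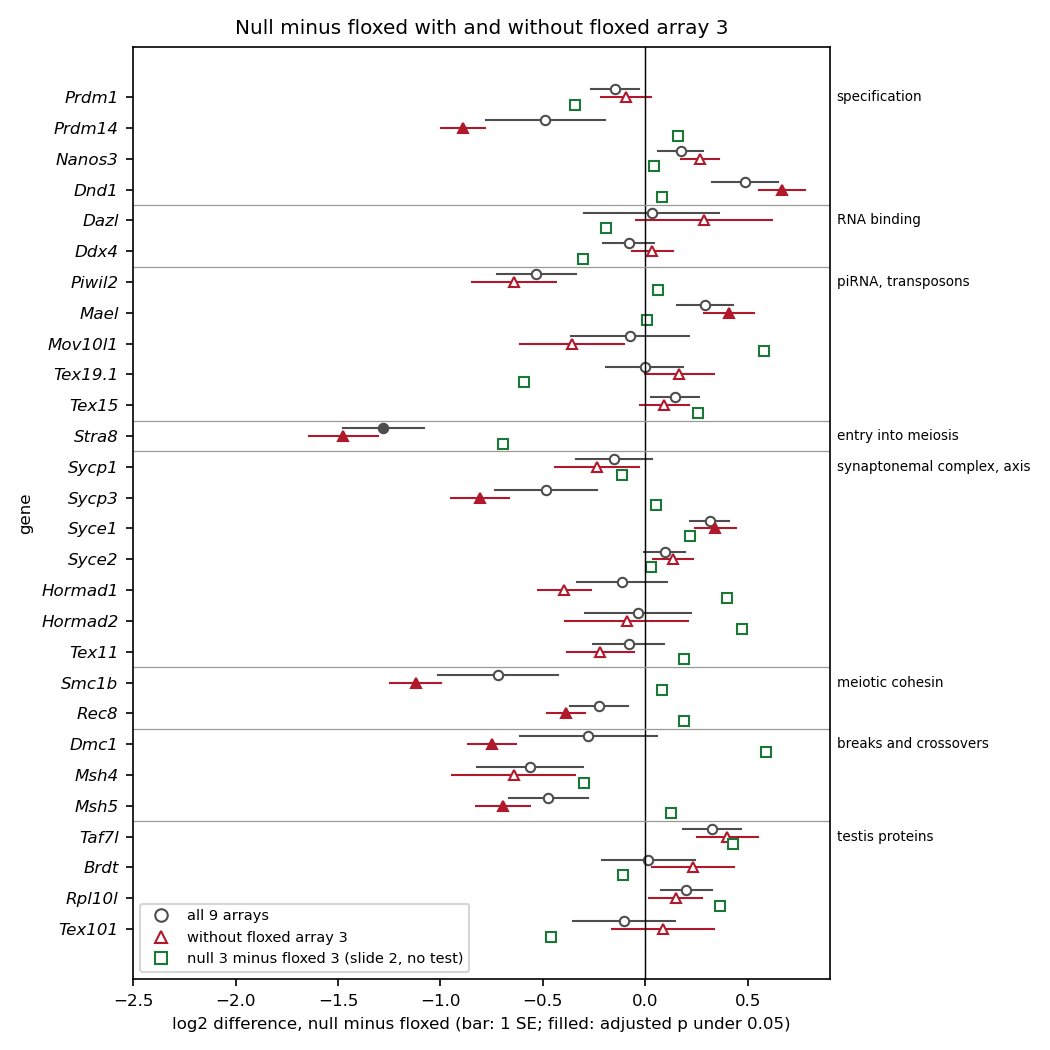
Null minus floxed difference on the log2 scale (horizontal axis, bar 1 standard error) of the 28 genes (vertical axis, by role) with all 9 arrays (circles), without floxed array 3 (triangles) and as null array 3 minus floxed array 3 on slide 2 (squares, 1 array each and no test), filled where the adjusted p was under 0.05. Smc1b, Prdm14, Sycp3 and Dmc1 are filled and at -0.75 or lower without floxed array 3, and at 0.05 or higher on slide 2.

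Related genes were counted from 4 lists. Of 30 other meiosis genes, 22 were measured, and none passed in null minus floxed with limma, where 3 (13.6%) had an unadjusted p under 0.05, against 22.8% of all genes. In null minus induced 1 passed, lower. It was Prdm9, the histone methyltransferase that places meiotic breaks, which was above background on the induced arrays alone and was at least 1.32-fold lower in null cells (measured means -4.25 ± 0.21 in null and -3.15 ± 0.09 in induced cells, adjusted p = 0.02). It was tested only because the induced arrays passed the filter, so this call is a description and not support for a change in the list. The list's median was -0.16 for null minus floxed and -0.26 for null minus induced, beside -0.08 and -0.23 for the 28 genes. Prdm9 and Spdya in this list, and Dazl and Hormad2 among the 28, passed the filter through the induced group alone. The null minus induced medians thus include genes picked where induced cells were high, and they are only a description. Brme1, which works with the recombinases at meiotic breaks, was at -0.36 ± 0.12 (0.141) in null minus floxed, and Prdm9, next by adjusted p, was below background in both groups. Without floxed array 3, 6 of the 22 genes were called lower and 2 higher in null minus floxed, against 11.7% and 13.1% of all genes. Prdm9 was among the lower ones although it was below background in both groups.

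Of 22 other piRNA and germ granule genes, 18 were measured. In null minus floxed 8 of them (44.4%) had an unadjusted limma p under 0.05, against 22.8% of all genes. Tdrd7, a Tudor protein of germ granules, was at -2.53, -2.80 and -3.19 on the null arrays, -1.72, -1.76 and -2.02 on the induced arrays and -1.35, -1.50 and -1.76 on the floxed arrays. It fell by 1.30 ± 0.18 in null against floxed cells (adjusted p = 0.0122) and by 1.01 ± 0.18 in null against induced cells (0.0339), where 2 of the 3 null arrays had it above background. All its null arrays lay below the 6 others. Pnldc1, the nuclease that trims piRNA ends, was higher in null than in induced cells by 0.42 ± 0.09 (0.0463). No other gene of the list passed with all arrays. Tdrkh was above background on all 3 induced arrays, 1 floxed array and no null array, so it passed the filter through the induced group alone. Its null minus induced difference, -1.27 ± 0.41 (0.119), was the lowest of the list. Tdrd7 was at -1.41 ± 0.19 (0.00189) in null minus floxed without floxed array 3. There 5 of the 18 genes were called lower and 3 higher, against 11.7% and 13.1% of all genes.

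Of 21 other germ cell factors, 15 were measured. In null minus floxed 4 of them (26.7%) had an unadjusted limma p under 0.05, against 22.8% of all genes. Dppa3, a maternal factor that marks early germ cells and is also expressed in stem cells, was at 1.13, 1.02 and 1.34 on the null arrays, 2.64, 2.10 and 2.16 on the induced arrays and 2.63, 2.70 and 2.47 on the floxed arrays. It fell by 1.44 ± 0.16 in null against floxed cells (adjusted p = 0.00419) and by 1.13 ± 0.16 in null against induced cells (0.0134), with floxed array 3 beside the other floxed arrays. Utf1, a chromatin protein of stem cells and germ cells, was higher in null than in induced cells by 0.59 ± 0.10 (0.0323). The other 13 measured factors passed in neither comparison. Dppa3 was at -1.50 ± 0.17 (0.00101) in null minus floxed without floxed array 3. There 3 of the 15 factors were called lower and 3 higher, against 11.7% and 13.1% of all genes.

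All 24 genes of the list of repressors of germline genes were measured. None passed in any comparison with limma on all arrays, and 3 (12.5%) had an unadjusted p under 0.05 in null minus floxed, against 22.8% of all genes. In null minus floxed 23 of the 24 differences were above 0, with a median of 0.15, and in null minus induced 20 of 24, with a median of 0.11. Over all 19900 genes, 10306 and 10629 differences were above 0, with medians of 0.01 and 0.02. Uhrf1, which brings the maintenance methyltransferase to DNA, was at 0.42 ± 0.11 (0.0817) in null minus floxed. Dnmt3b, a de novo DNA methyltransferase, was at 6.69, 6.80 and 6.78 on the null arrays, 5.59, 5.53 and 5.58 on the induced arrays and 5.37, 5.46 and 6.62 on the floxed arrays, and on floxed array 3 it lay with the null arrays. Its null minus floxed difference was 0.94 ± 0.28 (0.111). With floxed array 3 left out it was 1.34 ± 0.08 (9.8e-05). In that setting 6 of the 24 repressors were called higher and 0 lower in null minus floxed, against 13.1% and 11.7% of all genes. There 23 differences were above 0, and the median was 0.13.

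**Figure D5:**
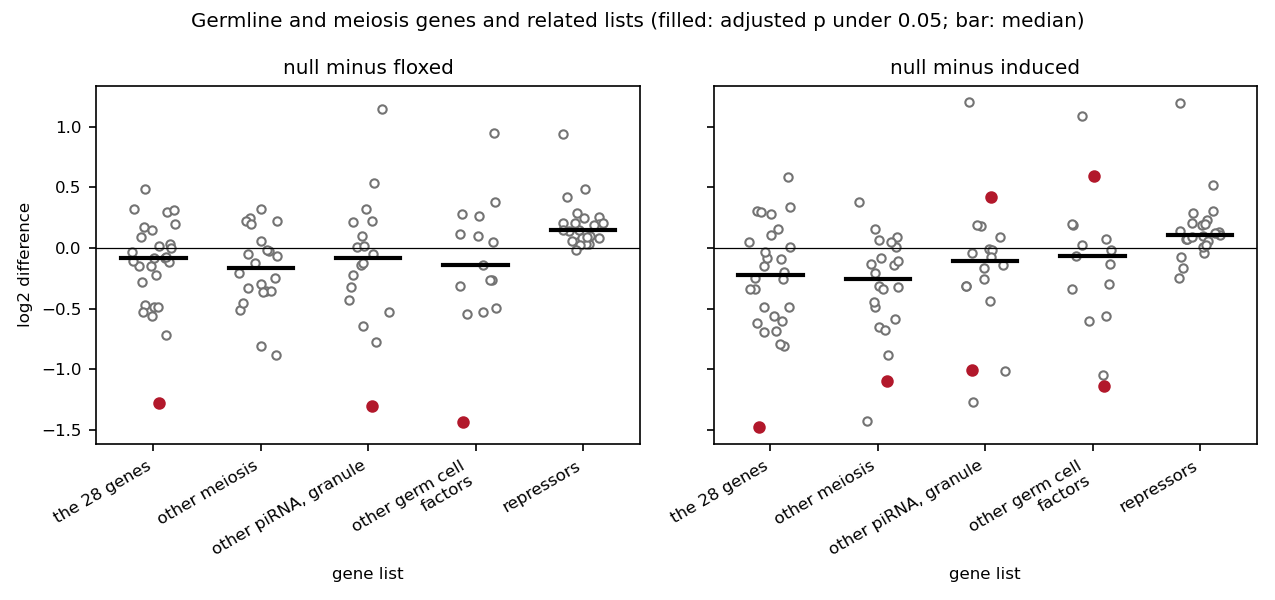
Difference on the log2 scale (vertical axis) of each measured gene in 5 lists (horizontal axis) for null minus floxed (left) and null minus induced (right), with filled points for an adjusted p under 0.05 and a line at the median. The medians of the 28 germline and meiosis genes are at -0.08 and -0.23 and those of the repressors at 0.15 and 0.11, and the filled points below -1 are Stra8, Tdrd7 and Dppa3 in both panels and Prdm9, below background on the null arrays, in the right one.

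Markers of other cells were read on the same arrays. Of 7 spermatid and sperm markers 1 (Prm2) was measured, of 6 oocyte markers 2 (Zp3 and Gdf9), of 6 Sertoli and Leydig markers 4 and of 6 primitive endoderm markers 1 (Gata4), and none passed in any comparison with all arrays. Zp3 and Rhox5, a Sertoli cell marker, were called higher in null than in floxed cells once floxed array 3 was left out, as were 13.1% of all genes. Of 10 fibroblast markers 7 were measured and 6 were lower in null cells in both comparisons. The seventh, Thy1, was at 1.37 ± 0.39 (0.104) for null minus floxed and 1.34 ± 0.39 (0.103) for null minus induced, and without floxed array 3 its null minus floxed difference was 1.92 ± 0.13 (0.000143). The list's summed level was 8.82 to 10.7 on the null arrays, 20.2 to 27.7 on the induced arrays and 30.1 to 36.8 on the floxed arrays, and Pdgfra and Lum were above background on no array. Of 6 trophectoderm markers 5 were measured and 4 were lower in null cells in both comparisons, with sums of 22.3 to 26.5, 48.2 to 69.2 and 67.2 to 89.3 on the null, induced and floxed arrays. The fifth, Eomes, was at 0.45 ± 0.31 (0.403) for null minus floxed and 0.71 ± 0.31 (0.202) for null minus induced, and at 0.87 ± 0.14 (0.00392) for null minus floxed without floxed array 3. Whether such cells were in the cultures was not tested, and neither was any part of them in the lower Stra8 level.

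Promoter sequences of 300 bases, from 250 before to 50 after the gene's start, were available for 28 of the 34 genes (RefSeq, GRCm38.p6). They were searched on both strands for CACGTG, the E-box that Max dimers bind, which reads the same on both strands, and for GCGGGA, the core of E2F sites, which reads as TCCCGC on the other strand. The 2 motifs can share 1 base. CACGTG was present in 11 of the 28 genes (39.3%) and in 8.09% of the 27025 genes with a promoter in the table. GCGGGA was present in 13 of the 28 (46.4%) and in 22.0% of all genes, and both motifs in 7 of the 28 (25%) and in 2.32% of all genes. The 7 were Ddx4, Mael, Sycp1, Sycp3, Hormad1, Slc25a31 and Syce2. A match of these letters is not a measured binding site.

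The promoters of Stra8 and of 3 genes that were called on slide 3 alone are shown, with the motif letters in capitals. Stra8, the gene called with limma on all arrays, held neither motif in this window. Sycp3 held 2 E-boxes, 64 and 43 bases before the start, and 1 E2F core. Dmc1 held 2 E2F cores and Smc1b 1.
Stra8 promoter (chr6:34920698-34920997, plus strand): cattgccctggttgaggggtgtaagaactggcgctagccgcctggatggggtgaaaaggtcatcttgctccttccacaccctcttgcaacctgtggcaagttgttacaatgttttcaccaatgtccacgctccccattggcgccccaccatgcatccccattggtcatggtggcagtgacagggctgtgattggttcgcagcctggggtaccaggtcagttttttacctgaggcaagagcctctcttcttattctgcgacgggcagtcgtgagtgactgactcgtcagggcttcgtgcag
Sycp3 promoter (chr10:88459337-88459636, plus strand): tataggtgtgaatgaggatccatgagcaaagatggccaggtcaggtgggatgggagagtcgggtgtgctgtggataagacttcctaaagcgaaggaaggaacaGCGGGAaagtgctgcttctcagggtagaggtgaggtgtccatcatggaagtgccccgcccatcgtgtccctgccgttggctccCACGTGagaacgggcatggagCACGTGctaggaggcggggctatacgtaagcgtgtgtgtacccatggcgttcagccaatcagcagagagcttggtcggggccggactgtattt
Dmc1 promoter (chr15:79605060-79605359, minus strand): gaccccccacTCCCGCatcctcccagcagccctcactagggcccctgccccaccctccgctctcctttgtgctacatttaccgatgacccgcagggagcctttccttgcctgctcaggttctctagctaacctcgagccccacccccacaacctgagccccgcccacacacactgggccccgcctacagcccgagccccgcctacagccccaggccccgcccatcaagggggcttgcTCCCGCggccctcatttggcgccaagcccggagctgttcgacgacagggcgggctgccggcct
Smc1b promoter (chr15:85131908-85132207, minus strand): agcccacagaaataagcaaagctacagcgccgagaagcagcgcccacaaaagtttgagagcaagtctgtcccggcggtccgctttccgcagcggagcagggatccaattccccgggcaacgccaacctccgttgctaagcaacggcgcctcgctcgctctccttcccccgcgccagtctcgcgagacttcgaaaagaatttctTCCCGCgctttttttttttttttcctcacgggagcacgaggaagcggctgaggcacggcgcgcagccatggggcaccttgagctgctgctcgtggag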

How the data were processed

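Total RNA was labelled with Cy3 and hybridised to 1-colour Agilent arrays, 1 per sample. The scanner files deposited by the authors hold spot intensity on a linear scale, as a background-subtracted processed signal that was not scaled between arrays. Per the file headers and the submitters' processing notes, these values were made with Agilent Feature Extraction 10.7.3.1. Other deposited columns used were the raw mean signal, the background around each spot and the flags for outlier, saturated and well-above-background spots. The deposited series matrix equals the mean signal for 100% of values, and 0 of its columns were left unmatched.

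Control and outlier spots were left out, the spots of a probe averaged, and the log2 processed signal set against the array's own 75th percentile, by subtraction. Probes were kept (27516 of them) when 1 group or more had them well above background throughout. The brightest probe stood for a gene, which left 19900 genes. Genes were named through RefSeq accessions (GRCm38.p6) or else as in the files. Of the 44 probes of the set, 41 matched the reference symbol and 3 kept the file's name. Groups come from the labels. A single limma fit (limma 3.58.1, R 4.3.3) of 3 group means gave two-sided moderated tests, adjusted by Benjamini-Hochberg over all genes. The fit was tested on simulated data.

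The genes and lists were chosen with earlier results of these data known. By the naming rule, values on every array are given for genes that passed or were above background on all 9 arrays, ranges for genes above it throughout a group, and names for the rest. Of each related list, up to 4 passing genes are named by adjusted p, or else the 2 with the smallest. The values of Dnmt3b on each array and the genes called without floxed array 3 or on slide 3 were chosen after their values were seen. So were Thy1, Eomes, Zp3, Rhox5, Spdya and Tdrkh, and the list and overlap counts without floxed array 3. Alternatives were other normalizations, background corrections and probe filters, slide and replicate blocks, array weights and leaving out each array.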

Additional observations from a re-analysis of the deposited data

How the results depend on the processing

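The number of arrays and the signal over background limit these results, and 6 of the 34 genes and the second probes of others were too dim to follow. Over the settings tried, 1742 values of the 28 genes were recomputed. Each was set against its value with the main settings, and the other settings were not set against each other. None turned its direction against the main value where either of these 2 values passed the test. Of the recomputed values, 61 newly passed, 13 no longer passed, and 1647 kept their side of the threshold. Between other settings, directions of called genes could differ. Smc1b was called at -1.12 in null minus floxed without floxed array 3, and was at 0.08 within slide 2. Direction changed in 124 values where neither passed, in 42 of 84 differences, none larger than 0.72 with all arrays. The causes were not tested.

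With quantile normalization, normexp background, the deposited value table, all arrays above background, or each probe on its own, 1 of the set passed in null minus floxed and 1 in null minus induced, as with the main settings. With no filter on dim probes 0 passed in each (Stra8 adjusted p = 0.104 and 0.0607), among 76 and 63 of all genes. In null minus floxed, 0 of the set passed with slide as a fixed block (50 of all genes), with slide as a random block (103) and with the 2 groups alone (82), and 13 with array weights (5999). In null minus induced, 7 passed with the fixed block (3242 of all genes), 3 with the random block (1803), 7 within slide 3 (2459), 11 with array weights (4129) and 9 with the 2 groups alone (2771). Normexp background called 586 of all genes in null minus floxed, against 355.

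In induced minus floxed 1 of all genes passed with limma, and 0 with quantile normalization, normexp, the deposited table, no filter, the stricter filter or the random block, while 174 passed with the fixed block and 1118 with array weights, 2 of them in the set. In that comparison 1175 of all genes had an unadjusted p under 0.05. The median of the set in null minus floxed was 0.0712 with the fixed block and within slide 2 and -0.14 with array weights, and in induced minus floxed it was -0.0248 with array weights. In null minus induced it was -0.11 with normexp, -0.11 with the deposited table and -0.0859 with no filter, against -0.23.

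Leaving out 1 array at a time gave 0 to 10 called genes of the set and 83 to 4939 of all genes in null minus floxed, 0 of the set and 0 to 143 of all genes in induced minus floxed, and 0 to 7 of the set and 61 to 3602 of all genes in null minus induced. The highest count of each came without floxed array 3. The medians ran from -0.14 to -0.0556, from 0.0518 to 0.21 and from -0.27 to -0.16.

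With the replicate numbers as a block, the replicate block gave 1, 0 and 1 called genes of the set in null minus floxed, induced minus floxed and null minus induced, and 164, 1 and 187 of all genes. Same-numbered arrays did not deviate together (correlations between -0.11 and 0.09), so no pairing by number was seen. The labels do not say how the numbers were given, and these correlations cannot show whether arrays were prepared in sets.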
